A study of Mus musculus with 6 samples.

Results

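Messenger RNAs of the enzymes that build nucleotides, and of the folate enzymes that supply them with carbon, were followed in mouse embryonic stem cells (ESCs) that received a microRNA mimic or a small interfering RNA. The enzymes were picked by name as a list of 37, of which 36 were measured among the 13743 entries of the deposited table. Aprt, the adenine salvage enzyme, is not analysed here. All 36 passed the filter on low values, a mean of at least 1 RPKM (reads per kilobase of transcript, scaled to the mapped reads of the library) over the 6 libraries, which left 11428 genes to test. Their means ran from 4.17 RPKM to 274 RPKM, with a median of 48.1 RPKM against 11.7 RPKM for all genes tested.

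Every group, the controls included, has the genotype Dgcr8-/- and the strain C57/129 in the labels. Dgcr8 partners the nuclease Drosha, and without it canonical microRNAs are not processed. The design has 3 groups with 2 libraries in each. The miR-294 group received a mimic of miR-294, a microRNA of the miR-290 cluster of ESCs, and the siMbd2 group an siRNA against Mbd2, a methyl-CpG binding protein. The stated dose of mimics and siRNAs was 50 nM, given 16 h after plating, and the labels place every sample at 48 h. The sources used here do not name the RNA that the CTR group received, and the table's header calls that group mock. Neither the number of clones nor whether the replicates were separate cultures is stated, so each p-value covers only the spread between these libraries.

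Purine synthesis assembles the ring on phosphoribosyl pyrophosphate (PRPP) up to inosine monophosphate (IMP), which is turned into AMP and GMP. Pyrimidine synthesis makes the ring as orotate, adds PRPP to form UMP, and leads on to CTP and, after reduction of ribonucleotides, to thymidylate. Folate enzymes carry carbon units from serine into the purine ring and into thymidylate, and rapidly dividing cells such as ESCs depend on all of these routes for DNA and RNA synthesis.

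The labels were checked on Mbd2, which read 26.8 and 27.9 RPKM in CTR, 11.3 and 12.3 in miR-294, with 7.33 and 6.34 in siMbd2. The Dgcr8 gene itself still read 6.66 to 8.44 RPKM in the libraries labelled Dgcr8-/-, and since the deposited values are per gene and the deleted part is not given in these labels, they do not check the genotype. All 10 ESC markers were present, with summed levels from 5763 to 7308 RPKM over the libraries. With miR-294, 4 of them rose (Pou5f1, Zfp42, Utf1 and Tdgf1) and 4 fell (Nanog, by 0.80 on the log2 scale, Sox2, Tfcp2l1 and Dppa5a). With siMbd2, Pou5f1, Esrrb, Tfcp2l1, Dppa5a and Utf1 rose, while Sox2 and Nanog fell. Of 10 feeder fibroblast markers 3 were listed, and their sum, mostly Thy1, was 1.92 and 1.75 RPKM in CTR, 4.15 and 3.82 in miR-294, with 1.27 and 1.39 in siMbd2. The sum of 4 of 5 trophoblast markers was 5.92 and 5.52 RPKM in CTR, 8.91 and 7.96 in miR-294, with 6.59 and 7.46 in siMbd2. Sums of primitive endoderm (6 of 6) and mesoderm markers (2 of 4) lay between 0.52 and 4.15 RPKM. Primitive endoderm markers did not move together: Gata4 fell with miR-294, from 3.05 and 2.48 RPKM in CTR to 0.96 and 0.92. Sox7 (0.10 and 0.20 RPKM in CTR, 1.28 and 1.15 in miR-294), Gata6, Dab2, Sox17 and Pdgfra read higher there. Those lay under the filter and were not tested. The neuroectoderm sum (2 of 4) was 17.9 and 18.3 RPKM in CTR, 7.28 and 7.69 in miR-294, with 15.1 and 13.1 in siMbd2, and the part of these markers in the results below was not tested. RPKM values give no read counts, so the depth of the libraries is unknown. The CTR pair differed most, with a median absolute gap of 0.13 (log2) over the 36 enzymes against 0.04 in miR-294 and 0.04 in siMbd2. The share of summed RPKM from mitochondrially encoded genes was 3.03% and 4.13% in CTR, 2.53% and 2.68% in miR-294, with 3.27% and 3.38% in siMbd2, and their part was not tested.

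Against CTR, 28 of the 36 enzymes rose with miR-294 (77.8%; 27.7% of all genes tested were higher) and 5 fell (13.9%; 36.8% of all genes were lower). A gene was called higher or lower at a Benjamini-Hochberg adjusted p under 0.05 in limma, and rose and fell refer to such calls. The purine and folate enzymes rose, the pyrimidine enzymes were mixed, and the strongest change of the list was a fall of Rrm2b, a ribonucleotide reductase subunit gene. The median log2 change was 0.32 for the 36 enzymes and -0.08 for all genes tested. In bulk RNA, fewer cells of a type and less RNA per cell cannot be told apart. Since the enzymes are abundant, they were also set beside the 3674 tested genes with means from 20 to 300 RPKM, a range chosen after the results were seen. In that range 42.2% of genes were called higher with miR-294, against 23 of 29 enzymes (79.3%). With quantile normalization, which forces the libraries to 1 distribution, 22 of the 36 rose and 6 fell, and in the same range 34.8% of genes and 17 of 29 enzymes (58.6%) were higher.

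**Figure D1:**
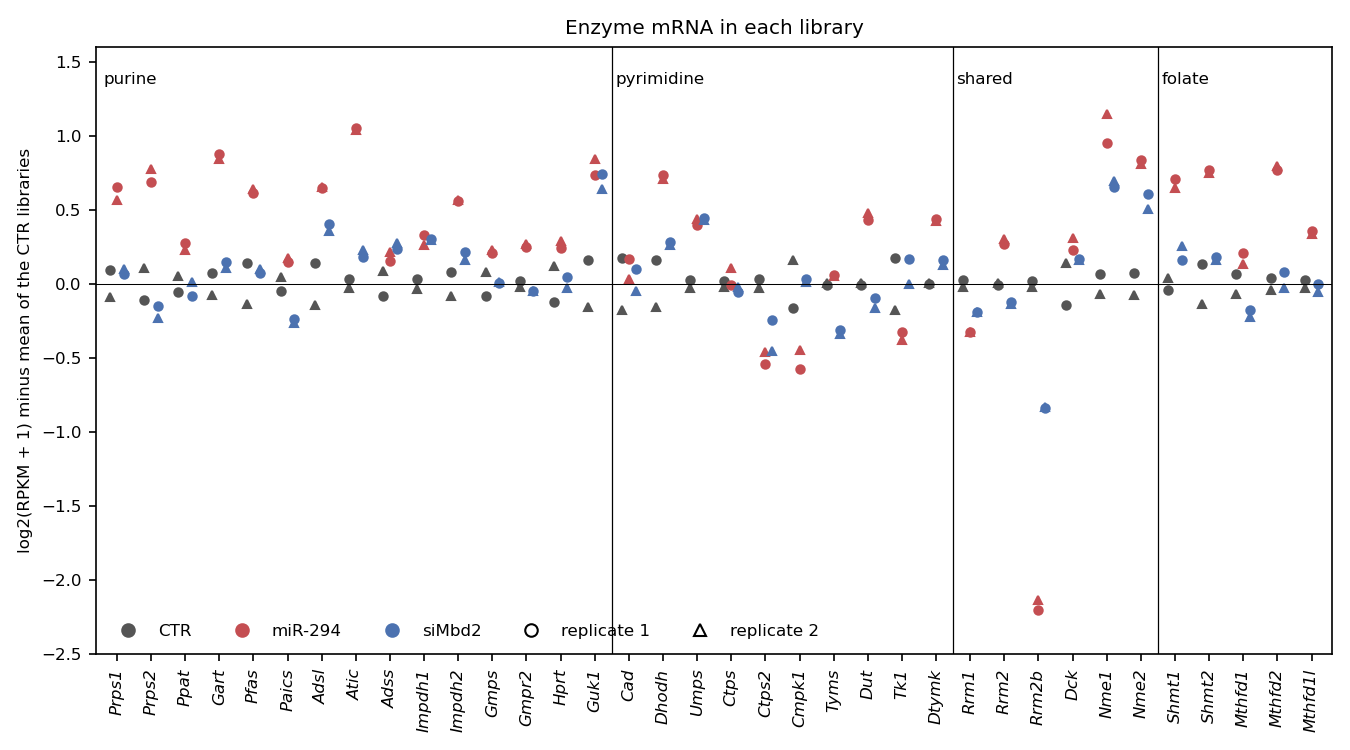
Each enzyme's log2(RPKM + 1) in the 6 libraries, minus the mean of the CTR libraries, by branch. Circles are replicate 1 and triangles replicate 2. The miR-294 points of the 15 purine and 5 folate enzymes lie above 0 on the deposited scale (with quantile normalization the changes of Paics and Mthfd1 turn to -0.17 and -0.000235), and those of Rrm2b lie lowest.

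All 15 purine enzymes measured rose with miR-294 on the deposited scale, with a median log2 change of 0.56. That median was 0.64 for the 6 enzymes that build the ring and 0.26 for the 4 that lead from IMP to AMP and GMP. The PRPP synthetase genes Prps1 and Prps2 were counted among the 15, although PRPP also serves pyrimidine synthesis. With quantile normalization 11 of 15 rose: Ppat (0.18, adjusted p = 0.0556), Adss (0.04, adjusted p = 0.696) and Hprt (0.10, adjusted p = 0.393) were not called, and Paics was lower (-0.17, adjusted p = 0.0433). Without miR-294 replicate 1, 9 of the 15 were called higher, and without miR-294 replicate 2, 10. The PRPP synthetase genes came to 45.3 and 39.9 RPKM in CTR and 67.6 and 63.5 in miR-294 for Prps1 (log2 change 0.61, SE 0.07, adjusted p = 0.000134). Prps2, the scarcer isoenzyme, read 3.06 and 3.73 RPKM in CTR and 6.06 and 6.5 in miR-294 (log2 0.73, adjusted p = 0.000315). For both genes the miR-294 libraries lay above the CTR libraries without overlap, while siMbd2 libraries read 44.6 and 45.6 RPKM for Prps1 and 2.95 and 2.73 for Prps2. A related gene, Prps1l3, is listed separately, so the division of reads between it and Prps1 is uncertain.

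Within the ring-building steps, Atic changed most. Atic (chromosome 1, 71557156 to 71579403, GRCm38) encodes the enzyme of the final steps to IMP, one of which takes a formyl group from folate. Its CTR libraries had 50.2 and 48.1 RPKM, its siMbd2 libraries 56.0 and 57.7, and its miR-294 libraries 103 and 102. The rise with miR-294 was 1.05 on the log2 scale (SE 0.06, adjusted p = 2.98e-06), and the miR-294 libraries lay above those of both other groups without overlap. Gart, a trifunctional enzyme that includes the other folate-dependent formyl transfer, read 98.4 and 88.8 RPKM in CTR and 173 and 169 in miR-294 (log2 0.86, SE 0.06, adjusted p = 1.17e-05), with 104 and 101 in siMbd2. The folate-dependent steps of the ring thus had the largest changes of the 6 ring-building genes. Pfas, the amidotransferase between them, read 35.2 and 28.9 RPKM in CTR, 49.3 and 50.3 in miR-294 (log2 0.63, adjusted p = 0.000325), with 33.6 and 34.2 in siMbd2. Adsl, the adenylosuccinate lyase that acts both on the way to IMP and on the way to AMP, read 63.9 and 52.5 RPKM in CTR, 91.1 and 91.6 in miR-294 (log2 0.65, adjusted p = 0.000248), with 77.1 and 74.4 in siMbd2.

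Ppat, the amidotransferase that commits PRPP to purines, and Paics, a bifunctional carboxylase and ligase, had the smallest rises among the ring-building genes, 0.25 (adjusted p = 0.00868) and 0.16 (adjusted p = 0.0314) on the log2 scale. These genes lie head to head on chromosome 5, with RefSeq start sites at 76951578 for Ppat and 76951302 for Paics (GRCm38.p6), 276 bases apart. Paics was the most abundant of the 6, at 231 and 248 RPKM in CTR, 265 and 270.2 in miR-294, with 203 and 199 in siMbd2. Its rise was thus small beside a high level, and its call ended without either miR-294 library or either siMbd2 library (adjusted p from 0.0736 to 0.181). That of Ppat ended without miR-294 replicate 1 (adjusted p = 0.0722).

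The promoter of Atic is printed because that gene had the largest change of the purine enzymes and its window holds the E-box CACGTG, a motif bound by MYC with its partner MAX and by other factors. The window covers 250 bases before the RefSeq start site and 50 after it (GRCm38.p6, chr1:71556906-71557205, plus strand), and capitals mark the E-box, whose first base lies at -7 from the start site.

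Atic promoter: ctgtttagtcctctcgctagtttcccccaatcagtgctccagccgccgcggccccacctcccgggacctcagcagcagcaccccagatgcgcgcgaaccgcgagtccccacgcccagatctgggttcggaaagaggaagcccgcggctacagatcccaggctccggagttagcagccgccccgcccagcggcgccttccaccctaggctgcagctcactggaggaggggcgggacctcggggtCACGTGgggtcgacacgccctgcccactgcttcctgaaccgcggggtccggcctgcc

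A promoter was found for 33 of the 36 enzymes, and 6 of them (18.2%) held the E-box, which reads the same on both strands. The share was 12.2% over the 8656 tested genes with a RefSeq promoter and 8.09% over all 27025 genes with one. The 6 were Paics, Atic, Impdh2, Tyms, Dtymk and Nme1, whose log2 changes with miR-294 ran from 0.06 for Tyms to 1.05 for Nme1. A second motif, TGATGNAA (both strands), the type of element bound by ATF4, was in 1 of 33 windows (3.03%), that of Prps1, against 2.63% of tested genes. These are letter matches. The E-box was found with genes that rose strongly, with Paics, which rose by 0.16, and with Tyms, which was not called. Gart (0.86) and Nme2 (0.82) rose strongly without an E-box in their windows.

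Beyond IMP, Impdh2 and Guk1 had the largest changes. Impdh2, the main IMP dehydrogenase of dividing cells and the step that commits IMP to GMP, read 134 and 120.3 RPKM in CTR, 188 and 189 in miR-294, with 148 and 142 in siMbd2 (log2 0.56 with miR-294, SE 0.06, adjusted p = 0.000105). Guk1, the kinase that turns GMP into GDP, read 26.5 and 21.1 RPKM in CTR, 40.0 and 43.1 in miR-294, with 40.2 and 37.5 in siMbd2 (log2 0.79 with miR-294, adjusted p = 0.000209). The Guk1 values of both treated groups overlapped, whereas Impdh2 was higher with miR-294 than in any other library. The IMP branch enzymes Impdh1 (0.29), Adss (0.19), which starts the AMP branch, and Gmps (0.22), the GMP synthetase, changed less on the log2 scale, as did Gmpr2 (0.26), which returns GMP to IMP, and Hprt (0.26), which salvages guanine and hypoxanthine. Calls of Adss and Gmps ended without CTR replicate 1 or any 1 treated library (adjusted p up to 0.211 and 0.161), and those of Gmpr2 and Hprt without either miR-294 library (adjusted p up to 0.0725 and 0.107).

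**Figure D2:**
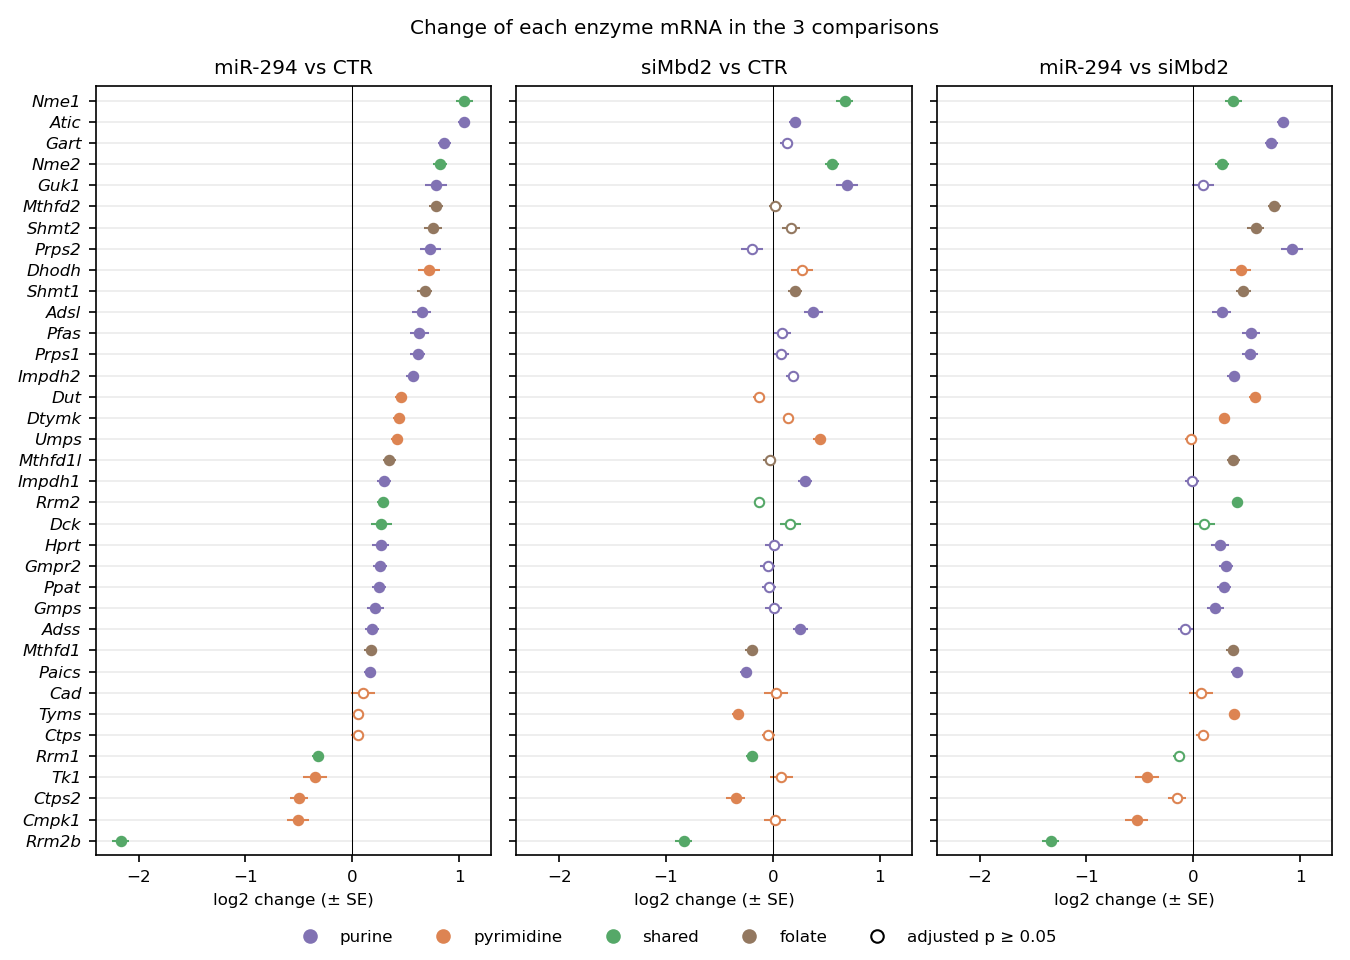
Log2 change of each enzyme with its standard error in the 3 comparisons, sorted by the change in miR-294 vs CTR and coloured by branch. Filled points passed an adjusted p of 0.05 and open points did not. From Nme1 (1.05) to Rrm2b (-2.17), 28 of 36 enzymes were called higher with miR-294 on the deposited scale and 22 with quantile normalization.

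Pyrimidine enzymes did not move one way with miR-294: 4 of 10 rose, 3 fell and 3 were not called, with a median log2 change of 0.08 on the deposited scale and -0.01 with quantile normalization. Dhodh, the mitochondrial enzyme that makes orotate, read 14.3 and 11.3 RPKM in CTR, 21.8 and 21.3 in miR-294, with 15.7 and 15.4 in siMbd2 (log2 0.72 with miR-294, SE 0.10, adjusted p = 0.000324). Umps, which turns orotate into UMP, also rose (log2 0.42, adjusted p = 0.000282). Cad, the large protein that carries out the opening steps of the route, read 57.7 and 44.9 RPKM in CTR, 57.3 and 52.0 in miR-294, with 54.5 and 49.3 in siMbd2 (log2 0.10 with miR-294, SE 0.11, adjusted p = 0.460). The CTR libraries of Cad enclosed the miR-294 values for replicate 1 and replicate 2, and without CTR replicate 1 its change was 0.28 (adjusted p = 0.0158), so the value depended on the CTR library used.

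Neither Cmpk1 nor the CTP synthetase genes rose with miR-294. Cmpk1, the kinase of UMP and CMP, read 22.9 and 28.9 RPKM in CTR, 17.0 and 18.7 in miR-294, with 26.3 and 26.0 in siMbd2 (log2 -0.51 with miR-294, SE 0.10, adjusted p = 0.00267). Of the CTP synthetase genes, Ctps was not called (log2 0.05, adjusted p = 0.498) and Ctps2 fell by 0.50 on the log2 scale (adjusted p = 0.00107). The ratio of Ctps to Ctps2 RPKM was 2.24 and 2.28 in CTR, 3.35 and 3.41 in miR-294, with 2.59 and 3.10 in siMbd2. Every treated library thus had a higher ratio than both CTR libraries.

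Among the thymidylate genes, Dut and Dtymk rose with miR-294. Dut, which makes dUMP and clears dUTP, read 65.0 and 65.5 RPKM in CTR, 88.2 and 91.1 in miR-294, with 61.1 and 58.2 in siMbd2 (log2 0.45 with miR-294, SE 0.06, adjusted p = 0.000157). Dtymk, the thymidylate kinase, rose by 0.43 (adjusted p = 0.000118), while Tyms, the thymidylate synthase, was not called (0.06, adjusted p = 0.357). Tk1, the salvage kinase of thymidine, fell by 0.35 on the log2 scale (adjusted p = 0.0213), a call that ended without CTR replicate 1 or either miR-294 library (adjusted p from 0.0602 to 0.0962).

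Ribonucleotide reductase makes all deoxynucleotides from a large subunit, Rrm1, and a small subunit, which is Rrm2 in S phase or Rrm2b, a p53-responsive gene, outside it. Rrm2b (chromosome 15, 37923952 to 37961119, GRCm38) read 13.4 and 13.0 RPKM in CTR, 2.08 and 2.23 in miR-294, with 6.94 and 6.96 in siMbd2. No groups overlapped, and CTR was highest and miR-294 lowest. Its change in log2(RPKM + 1) was -2.17 with miR-294 (SE 0.08, adjusted p = 1.15e-06) and -0.83 with siMbd2 (adjusted p = 0.00042). Without the added 1, its mean RPKM with miR-294 was 0.164 of the mean CTR RPKM. Rrm2 read 99.8 and 101 RPKM in CTR, 121 and 124 in miR-294, with 92.2 and 91.0 in siMbd2 (log2 0.29 with miR-294, adjusted p = 0.00125; 0.10 and adjusted p = 0.140 with quantile normalization). Rrm1 read 66.3 and 64.2 RPKM in CTR, 52.0 and 51.9 in miR-294, with 57.0 and 57.0 in siMbd2 (log2 -0.32 with miR-294, adjusted p = 0.000849). Rrm1 and Rrm2b were thus both lower in the miR-294 and siMbd2 libraries than in CTR, Rrm2b by far more. Of the summed small-subunit RPKM, Rrm2b made up 11.8% and 11.4% in CTR, 1.69% and 1.77% in miR-294, with 7.0% and 7.11% in siMbd2. Dck, the salvage kinase of deoxycytidine, rose by 0.27 on the log2 scale (adjusted p = 0.0404). That call ended in 5 of 6 runs that left out 1 library, all but that without CTR replicate 2 (adjusted p up to 0.187).

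**Figure D3:**
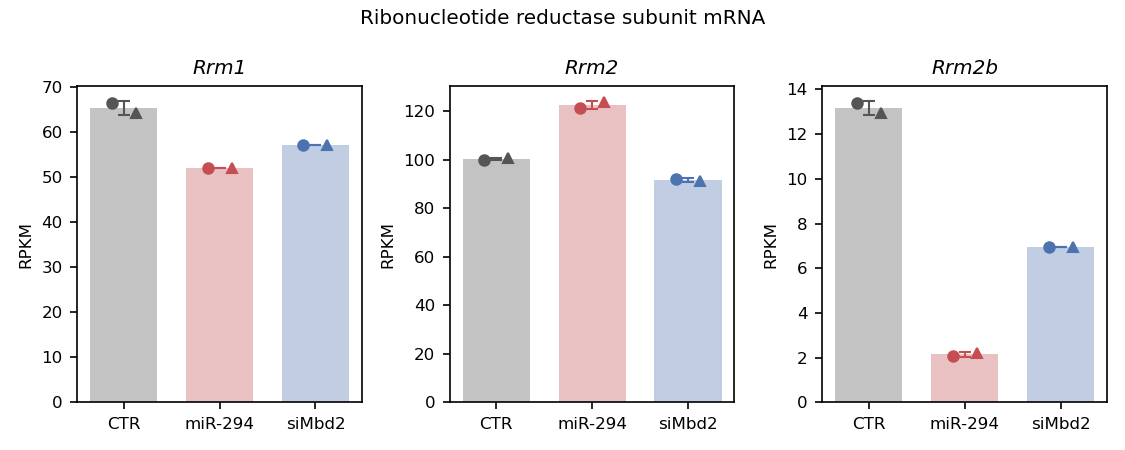
RPKM of the ribonucleotide reductase genes in each library, with circles for replicate 1 and triangles for replicate 2, bars at the mean and error bars of 1 standard deviation (n = 2). Rrm2b stands at 13.4 and 13.0 RPKM in CTR and at 2.08 and 2.23 in miR-294, while Rrm1 and Rrm2 change far less.

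Pairing of the miR-294 seed with 3' ends of mRNAs was examined because Rrm2b had the largest change. A microRNA pairs through its seed, bases 2 to 8, shown in capitals in the mature sequence (RefSeq, GRCm38.p6). The longest annotated 3' end after the stop codon of each gene (GENCODE vM21, GRCm38) was searched on the coding strand for an 8-base match (AGCACTTA) or one of 7 bases (AGCACTT or GCACTTA), each site being counted once in its longest class. The windows of Rrm2b and Gmps, which hold the 8-base match, are printed with it in capitals.

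miR-294-3p: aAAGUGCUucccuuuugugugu
Rrm2b site: tttttgtcataAGCACTTAagatggcatta
Gmps site: aaaagctggatAGCACTTAaaaaatgaaca

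The Rrm2b match lies at base 374 of the 3293 bases after the stop codon (chromosome 15, 37926864 to 37926871, minus strand), and that of Gmps at base 2960 of 5845 (chromosome 3, 64019694 to 64019701, plus strand). Of the 36 enzymes 4 held any match (11.1%; 20.9% of 10804 tested genes with such a region), namely Prps2, Gmps, Tyms and Rrm2b, and 2 held the 8-base match (5.56%; 3.68% of tested genes). With miR-294 Rrm2b changed by -2.17 (log2), Gmps by 0.22, Tyms, which has 3 of the 7-base matches, by 0.06, and Prps2, which has 1, by 0.73. A match was therefore found both with the largest fall and with genes that rose, and a match is a description of letters, not a shown site. Cmpk1, Ctps2, Tk1 and Rrm1, the other enzymes that fell, held none of these letters.

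Nme1 and Nme2 encode nucleoside diphosphate kinases, which turn diphosphates of both bases into triphosphates. Nme1 (chromosome 11, 93958925 to 93968272) read 22.4 and 20.4 RPKM in CTR, 42.3 and 48.5 in miR-294, with 34.2 and 35.2 in siMbd2. Its log2 change was 1.05 with miR-294 (SE 0.08, adjusted p = 1.46e-05) and 0.67 with siMbd2 (adjusted p = 0.000934). Nme2 read 204 and 184 RPKM in CTR, 346 and 339.7 in miR-294, with 295 and 275 in siMbd2 (log2 0.82, adjusted p = 1.74e-05, with miR-294 and 0.56, adjusted p = 0.000903, with siMbd2). In both genes CTR was lowest, siMbd2 between and miR-294 highest without overlap. The genes are close neighbours with very similar coding sequences, so the split of reads between them is uncertain. A promoter window of Nme1 is printed as that of the enzyme with the largest rise (GRCm38.p6, chr11:93968223-93968522, minus strand). Capitals mark its E-box, whose first base lies at -18. Another RefSeq window of Nme1 (chr11:93967976-93968275), not printed, also holds an E-box, with its first base at -29.

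Nme1 promoter: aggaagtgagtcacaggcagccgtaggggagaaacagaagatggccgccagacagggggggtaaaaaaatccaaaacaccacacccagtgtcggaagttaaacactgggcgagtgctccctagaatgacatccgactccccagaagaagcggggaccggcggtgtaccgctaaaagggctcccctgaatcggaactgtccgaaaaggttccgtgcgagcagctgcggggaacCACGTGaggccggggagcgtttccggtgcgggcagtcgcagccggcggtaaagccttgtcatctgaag

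All 5 folate enzymes rose with miR-294 on the deposited scale, with a median log2 change of 0.68, and 4 of 5 with quantile normalization, where Mthfd1 stood at -0.000235 (adjusted p = 0.997). Shmt2, the mitochondrial enzyme that splits serine into glycine and a folate-bound carbon, read 86.2 and 71.5 RPKM in CTR, 134 and 133 in miR-294, with 89.3 and 87.9 in siMbd2 (log2 0.76 with miR-294, SE 0.08, adjusted p = 8.45e-05). Shmt1, its cytosolic counterpart, read 20.1 and 21.4 RPKM in CTR, 34.5 and 33.1 in miR-294, with 23.3 and 24.9 in siMbd2 (log2 0.68, adjusted p = 5.29e-05). Both isoenzymes rose, and the ratio of Shmt1 to Shmt2 RPKM overlapped between CTR (0.233 and 0.299) and miR-294 (0.257 and 0.25).

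Mthfd2, the mitochondrial dehydrogenase and cyclohydrolase, read 61.3 and 57.8 RPKM in CTR, 102 and 104 in miR-294, with 63.0 and 58.2 in siMbd2. It had the largest change of the folate enzymes with miR-294 (log2 0.78, SE 0.06, adjusted p = 1.61e-05), and its siMbd2 values overlapped CTR. Mthfd1l, which releases formate in mitochondria, rose by 0.35 (adjusted p = 0.00116), and Mthfd1, the trifunctional cytosolic enzyme that takes formate up again, by 0.17 (adjusted p = 0.0435). The call of Mthfd1 ended in 5 of 6 runs that left out 1 library, all but that without CTR replicate 1 (adjusted p up to 0.249). The ratio of Mthfd2 to Mthfd1 RPKM was 0.695 and 0.719 in CTR, 1.05 and 1.13 in miR-294, with 0.847 and 0.808 in siMbd2. Mitochondrial Mthfd2 thus passed cytosolic Mthfd1 in level per length only in the miR-294 libraries.

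Ratios between isoenzymes or sister enzymes were compared for 8 pairs in 3 comparisons, 24 in all, with a two-sided exact permutation test over libraries. With 2 libraries against 2 its smallest p is 0.333 (0.421 adjusted over the 24), so no pair could pass. The Rrm2 to Rrm2b ratio moved most, from 7.46 and 7.76 in CTR to 58.3 and 55.4 in miR-294, with 13.3 and 13.1 in siMbd2 (exact p = 0.333 for miR-294 against CTR). The Impdh1 to Impdh2 ratio, which has the scarcer gene first, was 0.151 and 0.161 in CTR against 0.134 and 0.127 in miR-294, with 0.167 and 0.173 in siMbd2 (exact p = 0.333 for miR-294 against CTR). With miR-294 the more abundant gene of each of these pairs gained on the scarcer one, as Ctps did on Ctps2. Other pairs went the other way. The gene scarcer in CTR gained for Nme1 to Nme2 (log2 ratio difference 0.26), Mthfd2 to Mthfd1 (0.62) and Mthfd1l to Mthfd1 (0.19). The ratios of Prps1 to Prps2 and of Shmt1 to Shmt2 overlapped between miR-294 and CTR.

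With siMbd2, 9 of the 36 enzymes rose (25%; 19.5% of all genes tested were higher) and 6 fell (16.7%; 14.9% of all genes were lower), shares near those of all genes. With quantile normalization the split was 6 higher and 8 lower, and the median log2 change of the 36 turned to -0.00213. The median log2 change was 0.05, against 0.02 for all genes tested. The counts depended on single libraries: 16 were higher without CTR replicate 1, 4 without siMbd2 replicate 1 and 4 without siMbd2 replicate 2, and 3 and 2 were lower without siMbd2 replicate 1 and replicate 2. Besides Rrm2b, Nme1 and Nme2, the calls that held in every alternative run were those of Guk1, Umps and Tyms. Guk1 rose by 0.69 on the log2 scale (SE 0.10, adjusted p = 0.00192). Umps read 34.95 and 33.7 RPKM in CTR and 47.2 and 46.6 in siMbd2 (log2 0.44, adjusted p = 0.00122). Tyms, the enzyme that makes thymidylate with folate, read 77.4 and 78.5 RPKM in CTR and 62.6 and 61.4 in siMbd2 (log2 -0.33, adjusted p = 0.00267), below the miR-294 libraries at 81.4 and 80.9.

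The other siMbd2 calls were small. Adsl (0.38), Impdh1 (0.30), Adss (0.26), Atic (0.21) and Shmt1 (0.21) rose, and Ctps2 (-0.35), Paics (-0.25), Mthfd1 (-0.20) and Rrm1 (-0.19) fell on the log2 scale. Each of these 9 calls ended when siMbd2 replicate 2 was left out (adjusted p up to 0.3), and all but that of Ctps2 also without siMbd2 replicate 1. Those of Atic, Rrm1, Shmt1 and Mthfd1 ended without either miR-294 library too, and those of Shmt1 and Mthfd1 without CTR replicate 1, whose removal gave 9 purine enzymes higher. Quantile normalization ended the calls of Adss, Atic and Shmt1 (adjusted p = 0.117, 0.0741 and 0.155). Purine enzymes gave 5 higher and 1 lower of 15 (1 and 0 without either siMbd2 library), pyrimidine enzymes 1 and 2 of 10, and folate enzymes 1 and 1 of 5. No branch rose as a whole. Gart (0.13, adjusted p = 0.141) and Mthfd2 (0.03, adjusted p = 0.780), which rose strongly with miR-294, were not called with siMbd2. Both treatments were set against the same CTR libraries.

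Set directly against siMbd2, 24 of the 36 enzymes were higher with miR-294 (66.7%, against 21.9% of all genes tested) and 3 were lower (8.33%, against 35.5% of all genes). In the range from 20 to 300 RPKM, 31.7% of genes were higher and 29.3% lower. Of the 29 enzymes in that range 20 were higher (69%) and 2 lower (6.9%). The log2 differences do not use the CTR values, but the spread behind the calls was estimated from all 6 libraries, CTR included. Of the purine enzymes 12 of 15 were higher and of the folate enzymes 5 of 5. The largest differences were those of Prps2 (log2 0.92, adjusted p = 0.000132), Atic (0.84, adjusted p = 1.13e-05), Mthfd2 (0.76, adjusted p = 3.17e-05) and Gart (0.73, adjusted p = 3.91e-05). Rrm2b was lower by 1.33 (log2 -1.33, adjusted p = 8.59e-06), as were Cmpk1 (-0.53, adjusted p = 0.00263) and Tk1 (-0.43, adjusted p = 0.00948). For Tk1 the call ended without miR-294 replicate 2 or siMbd2 replicate 1 (adjusted p = 0.0553 to 0.0788). Among the enzymes that were higher, Adsl, Gmps and Hprt lost their calls without any 1 of the 4 treated libraries, Ppat without replicate 1 of either treatment, and Nme2 without miR-294 replicate 1 or siMbd2 replicate 2 (adjusted p from 0.0533 to 0.195). Guk1 (0.09, adjusted p = 0.450), Umps (-0.02, adjusted p = 0.754) and Impdh1 (-0.01, adjusted p = 0.928) rose against CTR in both treatments and were not called between them. Quantile normalization moved the median change of all genes by 0.11 in this comparison, and with it 20 enzymes were higher and 4 lower, with Adsl, Hprt, Dtymk and Nme2 no longer called.

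**Figure D4:**
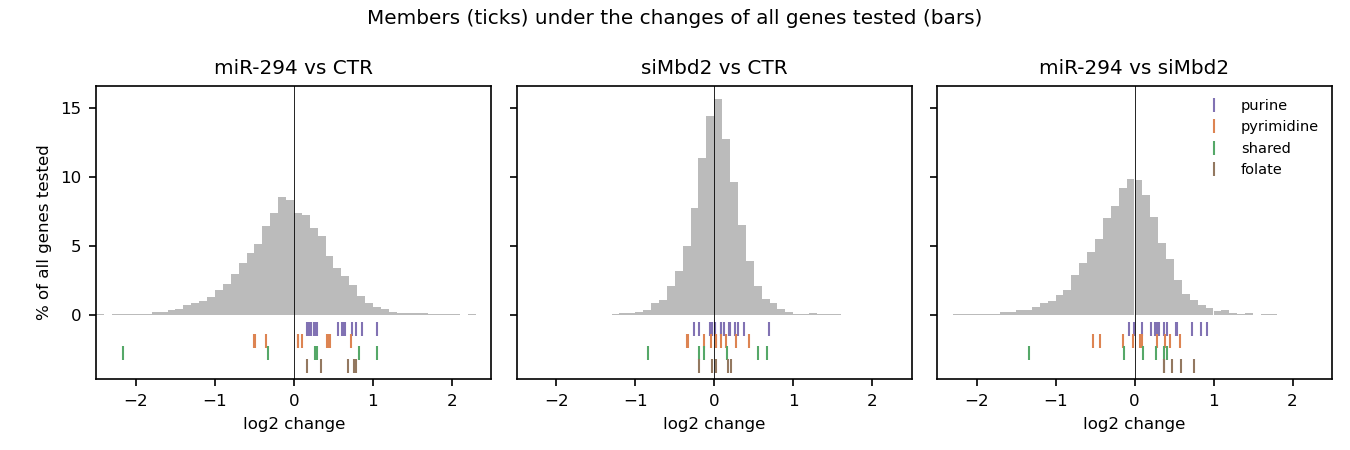
Log2 changes of all 11428 genes tested (grey bars, % of genes per 0.1 log2 units) with the enzymes as ticks underneath, 1 row per branch. With miR-294 the purine and folate ticks lie to the right of 0 on the deposited scale (Paics and Mthfd1 do not with quantile normalization), the pyrimidine ticks on both sides and Rrm2b at -2.17 far to the left. With siMbd2 most ticks lie nearer 0, with Rrm2b (-0.83), Guk1 (0.69) and Nme1 (0.67) farthest from it.

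Of 69 other genes of nucleotide and folate metabolism 58 could be tested, and 24 rose and 16 fell with miR-294, where 27.7% of all genes tested were higher and 36.8% lower. With siMbd2, 20 rose and 7 fell, against 19.5% and 14.9% of all genes. Their median log2 change was 0.11 with miR-294 and 0.11 with siMbd2. Of 17 genes of folate supply and use 8 rose and 4 fell with miR-294, of 10 salvage genes 4 rose and 1 fell, of 9 kinases 4 rose and 4 fell, of 4 isoforms and regulators 2 rose, and of 18 genes of nucleotide breakdown and pool cleaning 6 rose and 7 fell. These sublists are small, and over the 58 genes calls went in both directions. With siMbd2, more were higher than lower among these 58 and also among all genes tested. With miR-294, more of the 58 were higher than lower, unlike all genes tested. Tested genes with means from 20 to 300 RPKM were also more often higher (42.2%) than lower (27.4%) with miR-294. The 58 genes were not matched by level. The 4 with a change of at least 1 (log2) were Upp1, Dctpp1, Gldc and Ampd3. Upp1, the uridine phosphorylase, read 74.1 and 65.0 RPKM in CTR, 206 and 207 in miR-294, with 107 and 113 in siMbd2 (log2 1.56 with miR-294, adjusted p = 1.97e-06). Dctpp1, which removes modified dCTP, read 58.8 and 50.8 RPKM in CTR, 142 and 139.5 in miR-294, with 95.6 and 92.4 in siMbd2. Gldc, which decarboxylates glycine and hands its carbon to folate, read 23.9 and 21.4 RPKM in CTR, 55.2 and 54.0 in miR-294, with 30.6 and 30.9 in siMbd2. Ampd3, an AMP deaminase, fell, with 6.52 and 5.40 RPKM in CTR, 1.77 and 1.57 in miR-294, with 4.51 and 4.98 in siMbd2 (log2 -1.38, adjusted p = 1.48e-05).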

How the data were processed

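Messenger RNA was sequenced in 6 libraries of mouse ESCs, and the authors deposited 1 table of RPKM values, which per the file headers has 1 column per library. Per the labels each sample is the average of a pair of lanes. Tools named in the submitters' processing notes are CASAVA 1.7, STAR 2.3.0, Cufflinks (no version) and the mm10 build, without their roles. The authors' deposited fold columns, a ratio of mean RPKM over mock per the file headers, were not used. RPKM values are not counts, so no count test was run.

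Values were analysed as log2(RPKM + 1), which understates changes of scarce genes, for genes whose mean reached 1 RPKM. A linear model with 3 groups was fitted across all genes with limma 3.58.1 under R 4.3.3, letting the prior variance follow the mean level, with 3 residual and 5.38 prior degrees of freedom, two-sided tests and Benjamini-Hochberg adjustment per comparison. The script was tested on simulated data. Coordinates and sequences are from RefSeq and GENCODE vM21 on GRCm38, the assembly of mm10, read with Python 3.11.15 (pandas 2.3.3, numpy 2.4.6, matplotlib 3.10.9). Members and lists were chosen with earlier results of these data known. All members are named, with both values of each library group for those called with an absolute log2 change of at least 0.5 in any comparison, and other pathway genes from a change of at least 1. Alternatives were a pseudocount of 0.25, no filter, a minimum of 5 RPKM, median-of-ratios scaling, quantile normalization, fits of 2 groups, no trend, a replicate block and leaving out each library.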

Additional observations from a re-analysis of the deposited data

How the results depend on the processing

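With 2 libraries per group, RPKM without counts and a CTR pair that differed more than the others, small changes are the least certain. Against CTR, 23 of the 33 calls with miR-294 held in every alternative run, 6 of 15 with siMbd2, and 20 of 27 between the treatments. With quantile normalization the change with miR-294 turned to -0.17 for Paics and to -0.000235 for Mthfd1; the cause was not tested. Leaving out 1 library gave 20 to 27 members higher and 4 to 5 lower with miR-294, 4 to 16 higher and 2 to 7 lower with siMbd2, and 9 to 15 purine members higher with miR-294. A fit with the replicate number as a block gave 28 higher and 5 lower with miR-294, 11 and 6 with siMbd2, and 24 and 3 between the treatments. The labels do not say whether libraries with the same number share more than that number. Deviations of same-numbered libraries from their group means correlated at 0.12 between CTR and miR-294, 0.13 between CTR and siMbd2 and 0.02 between miR-294 and siMbd2.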
